A study of Mus musculus with 21 samples.

Results

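The 10 genes Mapt, Map2, Map1a, Map1b, Dcx, Tubb3, Stmn2, Stmn3, Gap43 and Dpysl3 encode proteins that build, bind or steer the microtubules of neurons, or that mark the growth cone. They were followed through the 26 probe sets annotated to one of these symbols alone, and they are 10 of the 18193 genes that have at least 1 such probe set. RNA of mice that lack cystatin B, an inhibitor of cysteine proteases (Cstb-/-, a germline knockout and a model of progressive myoclonus epilepsy of Unverricht-Lundborg type), was compared with that of wild type littermates (controls), both on the 129SvJ background, on Affymetrix mouse genome arrays. Whole cerebella were taken at postnatal day 7 (P7, before symptoms, 4 arrays per genotype) and at P30 (symptomatic, 3 arrays per genotype). Granule cells were cultured from the cerebella of P5 pups after removal of the meninges, kept in medium with calf serum, given the antimitotic AraC and harvested after 2 days in vitro (3 Cstb-/- and 4 control arrays). The question was which of these genes differed between the genotypes in each of the 3 experiments.

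Microtubules are polymers of alpha- and beta-tubulin that carry transport and give axons and dendrites their shape. Structural microtubule-associated proteins (MAPs) such as tau, MAP2, MAP1A and MAP1B bind along the polymer, doublecortin is found on it in young migrating neurons, and stathmins hold free tubulin dimers and favour disassembly. GAP-43 and the collapsin response mediator proteins act in the growth cone, the moving tip of a growing axon, and many of these genes are high while granule neurons, the most numerous neurons of the cerebellum, extend their axons in the first postnatal weeks.

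The deposited values had been centred so that every probe set had a median of 0 within an experiment, and thus the level of a gene and the presence of a tissue's markers cannot be read, and only differences between arrays of one experiment can. Values below are log2 signals from which the control mean of that experiment was subtracted. Cstb was lower on every Cstb-/- array than on any control array, with differences between -3.10 and -1.86 over its 2 probe sets and the 3 experiments. By their labels 3 of 4 Cstb-/- and 1 of 4 control mice at P7 were male, and sex and genotype were thus partly confounded there. At P30 Cstb-/- array 1 was labelled female, but neither the female-expressed Xist nor the Y-linked Eif2s3y set it apart. In the cultures, Eif2s3y on Cstb-/- arrays 1 and 2 went against the labelled sex (-2.33 on array 1, labelled male, and 1.78 on array 2, labelled female, relative to the median), and control arrays 7 and 8 carried both Xist (-0.23 and 0.32) and Eif2s3y (0.92 and 0). The results from the cultures are therefore given also without these arrays. The 18S rRNA control probe sets averaged 3.31 on P7 Cstb-/- array 5 and between -0.48 and 0.56 on the other P7 arrays, and in the cultures -1.23 on Cstb-/- array 1 and between -0.49 and 0.32 on the others. In 51.3% of all probe sets of the cultures, 9 of the 26 described here included, some arrays had identical values; the part of these ties in the results was not tested.

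Few of these probe sets differed between the genotypes in the cerebellum and more did in the cultures, as was the case over all probe sets of the arrays. A probe set was called at a fold of 1.3 or more (0.38 on the log2 scale) together with an adjusted p from limma under 0.05 (cerebella) or 0.01 (cultures), by the Benjamini-Hochberg method across the 45037 probe sets tested. At P7, 0 of the 26 probe sets were called, where 0.00666% of all probe sets were, and at P30 again 0 of 26 against 0.144%. In the cultures 1 of 26 was called, a probe set of Mapt with a lower value in Cstb-/- cells, against 2.54% of all probe sets. An unadjusted limma p under 0.05 was reached by 4 of the 26 at P7 (2 higher and 2 lower in Cstb-/-, against 9.45% of all probe sets), by 3 at P30 (2 higher, 1 lower, against 7.72%) and by 10 in the cultures (3 higher, 7 lower, against 31.6%). The arrays of the genotypes did not overlap in 2 of the 26 at P7 (5.65% of all), in 6 at P30 (12.5% of all) and in 12 in the cultures (22.8% of all, of these 12 probe sets 9 lower and 3 higher).

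The median difference over the 26 probe sets was 0.02 at P7, -0.02 at P30 and -0.04 in the cultures, and over all probe sets it was 0.01, -0.01 and -0.02. The median size of the difference, whatever its sign, was 0.12, 0.08 and 0.16 for the 26 and 0.08, 0.07 and 0.17 for all probe sets. The single differences ranged from -0.31 to 0.30 at P7, from -0.25 to 0.35 at P30 and from -0.92 to 0.73 in the cultures, where 8 probe sets passed the fold threshold. The 95% interval of the difference lay wholly within a fold of 1.3 in either direction for 15 of the 26 probe sets at P7 (77.9% of all probe sets), for 18 at P30 (81.1% of all) and for 10 in the cultures (42.7% of all). In the cultures the interval lay wholly beyond that fold for 2 probe sets, both of Mapt (1455028_at and 1424718_at). For the remaining probe sets a difference of that size was within the interval.

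**Figure D1:**
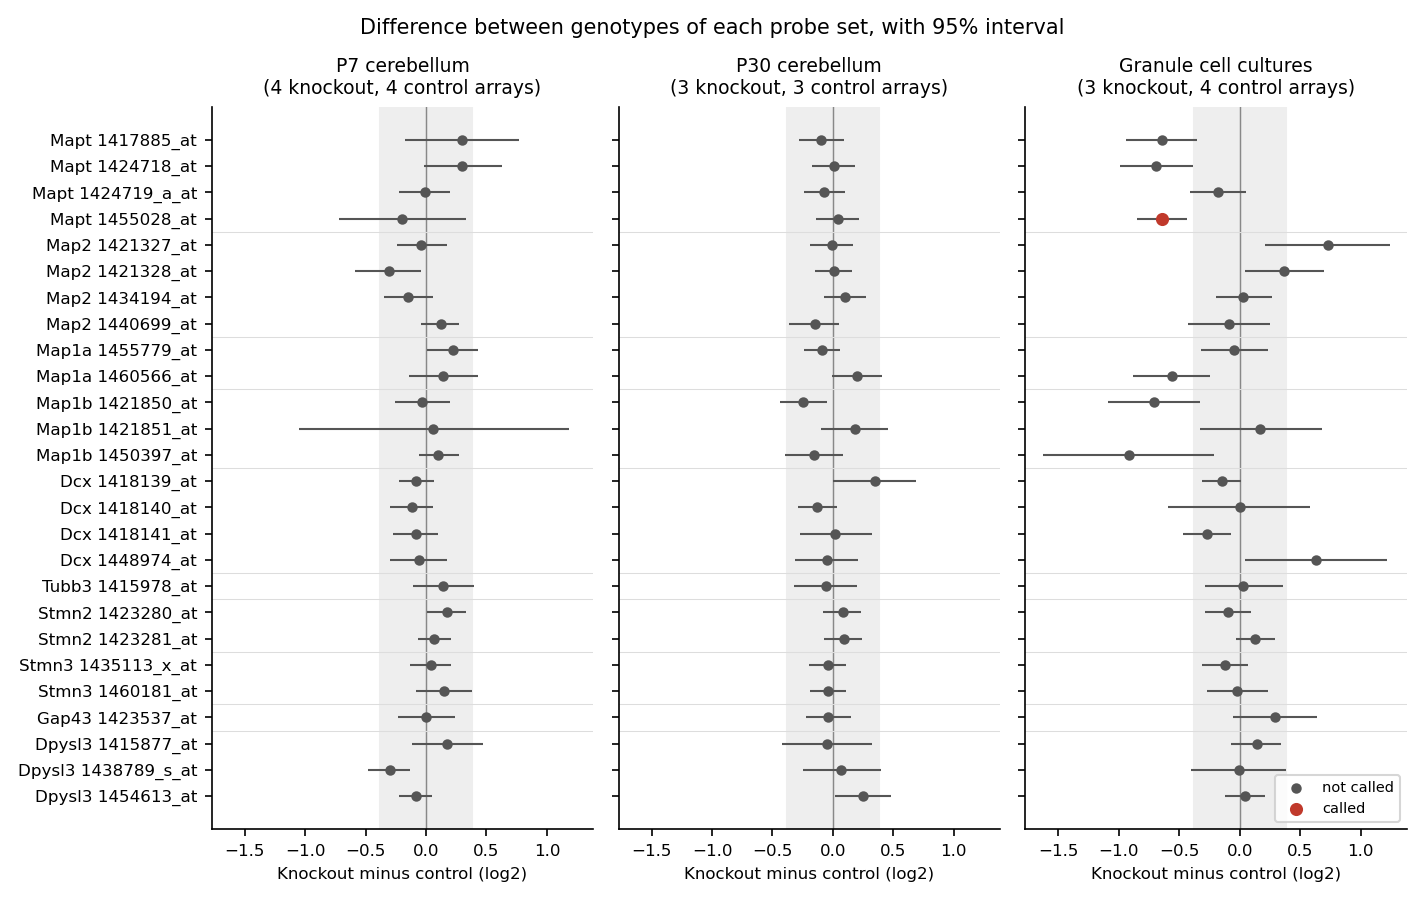
Difference between Cstb-/- and control arrays (log2, x axis) of each of the 26 probe sets (y axis, grouped by gene) in cerebella of P7 and P30 mice and in cultured granule cells. Points are limma estimates, bars are 95% intervals, the grey band marks a fold under 1.3, and the single red point is Mapt 1455028_at (-0.64) in the cultures; the points spread more widely in the cultures (-0.92 to 0.73) than at either age.

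Mapt encodes tau, which binds microtubules mainly in axons. In the cultures all 4 of its probe sets had lower values on every Cstb-/- array than on any control array. On 1424719_a_at this held by less than the rounding, with -0.03 on Cstb-/- array 1 and on control arrays 5 and 8. The probe set that was called fell to 0.64 of the control level. On this probe set, 1455028_at, the Cstb-/- arrays 1, 2 and 3 had -0.67, -0.63 and -0.64, and the control arrays 4, 5, 7 and 8 had -0.18, 0.08, 0.14 and -0.05. The Cstb-/- arrays thus lay within 0.04 of each other and below all controls, and the difference was -0.64 (SE 0.09, adjusted p = 0.00534 from limma). Leaving out control arrays 7 and 8 gave -0.60 (adjusted p = 0.114), and with Cstb-/- array 3 as the only knockout array it was -0.64 (adjusted p = 0.0718), so that the size stayed and the call was lost in both cases. The call was also lost when any one of Cstb-/- arrays 1 and 3 and control arrays 5, 7 and 8 was left out, with the methods' t-test and with arrays quantile-normalized again, while over single arrays left out the difference stayed between -0.70 and -0.60 (adjusted p from 0.0047 to 0.0279).

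Another 2 Mapt probe sets had differences of the same size in the cultures without passing the threshold. Probe set 1424718_at had -0.59, -0.56 and -0.92 on the Cstb-/- arrays and -0.25, 0.18, 0.09 and -0.02 on the control arrays (difference -0.69, SE 0.13, adjusted p = 0.0161 from limma). Probe set 1417885_at had -0.40, -0.57 and -0.96 against -0.02, 0.13, -0.02 and -0.08 (difference -0.64, SE 0.13, adjusted p = 0.021 from limma). In both, Cstb-/- array 3 was the lowest. The fourth, 1424719_a_at, had -0.03, -0.42 and -0.08 against 0.02, -0.03, 0.05 and -0.03, a difference of -0.18 (SE 0.10) that rested mostly on array 2. The mean of the 4 Mapt probe sets, as an alternative to single probe sets, was lower by 0.54 on the log2 scale in the Cstb-/- cultures (difference -0.54, 95% interval -0.72 to -0.35, adjusted p = 0.00366 from limma over genes) and passed the threshold.

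In the P7 cerebella the Mapt differences were 0.30, 0.30, -0.01 and -0.20, and none had an unadjusted p under 0.05. Single arrays stood out there: on 1417885_at control array 3, the only control array labelled male, had -0.81 while the other control arrays had 0.15 to 0.37 and the Cstb-/- arrays 0.20 to 0.44. Without control array 3 the differences of 1417885_at and 1424718_at were 0.03 and 0.13 instead of 0.30 and 0.30. This array was the control farthest from the control median in 11 of the 26 probe sets at P7. On 1455028_at Cstb-/- array 1 had -1.13 while the other Cstb-/- arrays had 0.07 to 0.15, and without it the difference was 0.11 instead of -0.20. At P30 the differences of the 4 probe sets lay between -0.10 and 0.04, and the arrays of the genotypes overlapped in each of them.

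Map1a and Map1b encode related proteins of which MAP1B prevails in growing axons and MAP1A in mature neurons. Each had at least 1 probe set with lower values on all Cstb-/- culture arrays, and none was called. Map1a 1460566_at had -0.29, -0.50 and -0.89 on Cstb-/- arrays 1, 2 and 3 and -0.08, 0.12, 0.02 and -0.05 on the control arrays (difference -0.56, SE 0.14, adjusted p = 0.0384 from limma). Its other probe set, 1455779_at, had 0.25, -0.28 and -0.11 against -0.02, -0.02, 0.07 and -0.02 (difference -0.05, SE 0.12), with the Cstb-/- arrays on both sides of the controls.

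Map1b 1421850_at had -1.08, -0.43 and -0.62 on the Cstb-/- culture arrays and 0, -0.24, 0.23 and 0.01 on the control arrays (difference -0.71, SE 0.17, adjusted p = 0.0345 from limma). Probe set 1450397_at had -1.83, -0.54 and -0.40 against -0.08, -0.05, 0.25 and -0.13 (difference -0.92, SE 0.31, adjusted p = 0.0909 from limma), the widest difference of the 26 in the cultures. It rested largely on Cstb-/- array 1, since leaving out 1 array at a time gave -1.18 to -0.47, the latter without that array (adjusted p between 0.0585 and 0.192). Array 1, the lowest on both of these Map1b probe sets, was also the array with the lowest 18S rRNA signal of the cultures, and the part of this in the Map1b values was not tested. The third, 1421851_at, had 0.63, -0.39 and 0.29 against 0.06, -0.26, 0.06 and 0.14 and did not part the genotypes.

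In the cerebella the MAP1 genes showed smaller differences. At P7 Map1a 1455779_at had 0.22, 0.19, 0.41 and 0.06 on Cstb-/- arrays 1, 2, 3 and 5 and 0.10, -0.02, 0.12 and -0.20 on control arrays 1 to 4 (difference 0.22, SE 0.10, unadjusted p = 0.0421, adjusted p = 0.516 from limma), with overlap between the genotypes. Map1b 1421851_at had the widest range of the 26 at P7, from -0.90 to 1.69 on the Cstb-/- and from -0.65 to 1.02 on the control arrays. Its highest values, on Cstb-/- array 5 and control array 3, were on the arrays with the highest 18S rRNA signal of each genotype (3.31 and 0.56). The part of this in the values was not tested. At P30 Map1b 1421850_at had -0.23, -0.13 and -0.38 against 0.08, -0.06 and -0.02, all Cstb-/- arrays below the controls (difference -0.25, SE 0.09, unadjusted p = 0.0189, adjusted p = 0.555 from limma). At P30 the 2 probe sets of Map1a went opposite ways without overlap, 1460566_at by 0.20 (SE 0.09; 0.10 without Cstb-/- array 1) and 1455779_at by -0.09 (SE 0.07).

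Map2, whose protein is found in dendrites and cell bodies, had higher values in the Cstb-/- cultures on some of its probe sets. On 1421327_at the Cstb-/- arrays had 0.65, 0.62 and 0.91 and the control arrays 0.29, -0.61, 0.39 and -0.07 (difference 0.73, SE 0.22, adjusted p = 0.075 from limma). The genotypes did not overlap, but the control arrays spread over 1 log2 unit, and control array 5 was far the lowest. On 1421328_at the values were 0.13, 0.64 and 0.34 against -0.07, -0.23, 0.17 and 0.13, with overlap (difference 0.37, SE 0.14, adjusted p = 0.121 from limma). Probe sets 1434194_at and 1440699_at differed by 0.03 (SE 0.10) and -0.09 (SE 0.15), and on the latter all control arrays were at 0. At P7 the same 1421328_at had -0.27, -0.18, -0.39 and -0.41 on the Cstb-/- and 0, 0.01, 0.34 and -0.35 on the control arrays (difference -0.31, SE 0.13, unadjusted p = 0.0304, adjusted p = 0.497 from limma), which without control array 3 was -0.20. At P30 the 4 probe sets lay between -0.15 and 0.10.

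**Figure D2:**
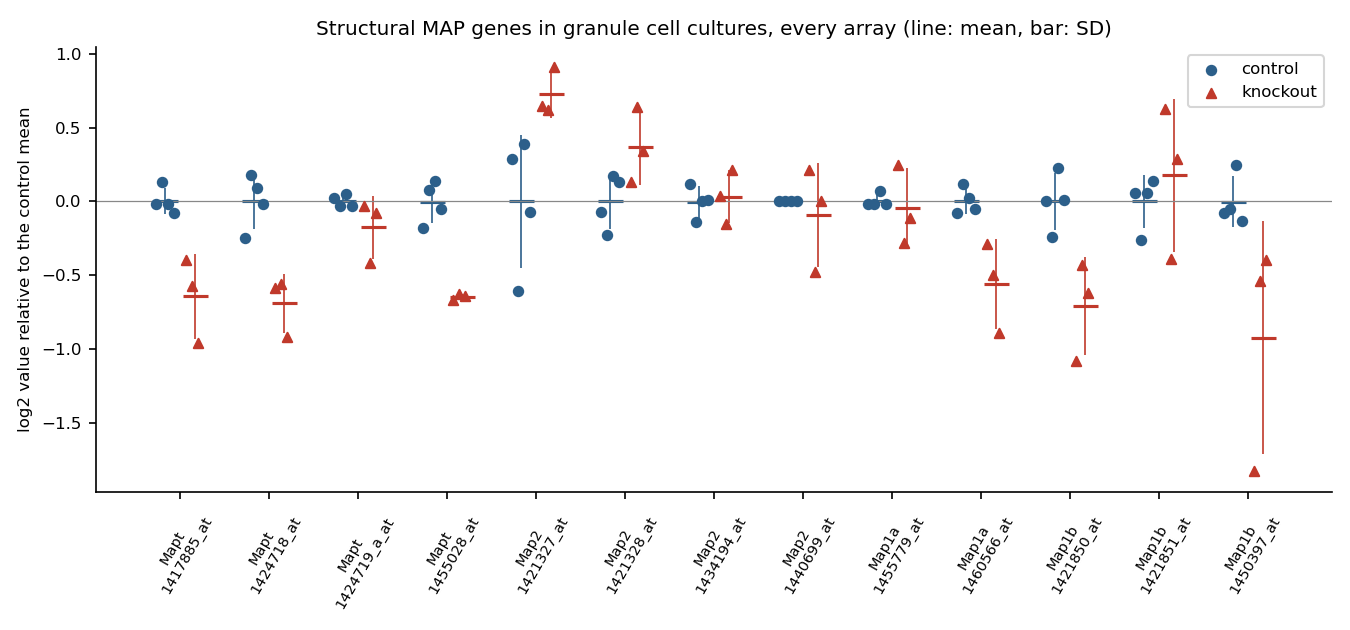
Values of every granule cell culture array (y axis, log2 relative to the control mean) for the 13 probe sets of Mapt, Map2, Map1a and Map1b (x axis). Blue circles are the 4 control arrays, red triangles the 3 Cstb-/- arrays, horizontal lines means and vertical bars SD. Triangles lie below all circles in the 4 Mapt probe sets and in Map1a 1460566_at, Map1b 1421850_at and Map1b 1450397_at, and above all circles in Map2 1421327_at. In Mapt 1424719_a_at the highest triangle and the lowest circles are both at -0.03 after rounding.

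With control arrays 7 and 8 left out, none of the 8 probe sets past the fold in the cultures changed direction, and their adjusted p from limma lay between 0.114 and 0.365. With Cstb-/- array 3 alone against the 4 controls, Map1a 1460566_at had -0.89 (adjusted p = 0.0378), Mapt 1417885_at -0.96 (adjusted p = 0.0378), Map1b 1450397_at -0.40 (adjusted p = 0.186) and Map2 1421327_at 0.91 (adjusted p = 0.207), with the lone array taken to vary like the controls.

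The sequences before the start of transcription are printed for Map1b, Map1a and Map2, whose mean differences in the cultures were the widest among the genes found in the promoter table, and for Tubb3, whose difference was the smallest, so that genes with unlike differences stand side by side. The table, from RefSeq on the mouse build GRCm38.p6, held 6 of the 10 genes. Each line gives the 250 bases before the start, 5' to 3' on the strand of the gene, with matches on either strand to any of 4 short motifs in capitals. The letters searched for were TATAAA for the TATA box that places the start in some genes, and CCAAT for the motif that is bound by the factor NF-Y. They were GGGCGG for the GC box that is bound by Sp1, and CANNTG for the E-box that is bound by helix-loop-helix factors.
Map1a, chr2:121289352-121289601 (plus strand): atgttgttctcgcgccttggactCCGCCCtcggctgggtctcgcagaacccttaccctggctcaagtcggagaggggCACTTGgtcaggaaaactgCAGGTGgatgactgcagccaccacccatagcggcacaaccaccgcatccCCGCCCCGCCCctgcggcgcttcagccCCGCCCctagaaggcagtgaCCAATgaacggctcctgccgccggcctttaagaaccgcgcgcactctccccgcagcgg
Map1b, chr13:99516603-99516852 (minus strand): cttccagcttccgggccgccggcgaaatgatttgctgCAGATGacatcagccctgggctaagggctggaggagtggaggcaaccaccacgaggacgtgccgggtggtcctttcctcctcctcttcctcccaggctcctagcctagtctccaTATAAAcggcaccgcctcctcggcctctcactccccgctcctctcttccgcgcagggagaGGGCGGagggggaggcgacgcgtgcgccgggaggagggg
Map2, chr1:66175079-66175328 (plus strand): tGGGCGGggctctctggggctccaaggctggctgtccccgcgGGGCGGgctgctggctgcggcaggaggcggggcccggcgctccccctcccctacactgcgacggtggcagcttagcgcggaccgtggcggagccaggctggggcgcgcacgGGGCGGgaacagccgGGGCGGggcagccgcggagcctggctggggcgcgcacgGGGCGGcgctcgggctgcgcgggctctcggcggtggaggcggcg
Tubb3, chr8:123411303-123411552 (plus strand): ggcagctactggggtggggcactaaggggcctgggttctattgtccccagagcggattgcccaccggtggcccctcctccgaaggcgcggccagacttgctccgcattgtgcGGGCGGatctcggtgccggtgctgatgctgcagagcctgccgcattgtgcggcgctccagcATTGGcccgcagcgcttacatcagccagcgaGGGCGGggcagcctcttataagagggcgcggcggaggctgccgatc
The Map1a window held 4 GC boxes, a pair of which share a base, 1 NF-Y motif and 2 E-boxes, and no TATA box. The Map1b window held 1 TATA box, 1 GC box and 1 E-box. The Map2 window held 5 GC boxes and none of the other motifs, and the Tubb3 window 2 GC boxes and 1 NF-Y motif. Of all 32851 windows of this length in the table, 12.4% held the TATA box, 33.8% the NF-Y motif, 32.7% the GC box and 66.2% the E-box. The bases G and C made up 66.0% of the Map1a window, 66.4% of Map1b, 81.2% of Map2 and 68.0% of Tubb3, against a median of 52.4% over all windows. These are matches of letters alone, and no binding was measured.

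Dcx encodes doublecortin, which binds microtubules in migrating and young neurons, and lies on the X chromosome. Its 4 probe sets went different ways in the Cstb-/- cultures. Probe set 1448974_at had 0.66, 0.69 and 0.55 on the Cstb-/- and 0.17, -0.77, 0.50 and 0.11 on the control arrays (difference 0.63, SE 0.26, adjusted p = 0.137 from limma). The genotypes were parted by 0.05, and control array 5 was again far the lowest. Without it the difference was 0.37, just under the fold threshold (adjusted p = 0.121 from limma). Probe set 1418141_at had -0.36, -0.14 and -0.31 against -0.09, -0.09, 0.07 and 0.10 (difference -0.27, SE 0.09, adjusted p = 0.0857 from limma), and 1418139_at -0.20, -0.15 and -0.10 against -0.06, 0.05, -0.05 and 0.06 (difference -0.15, SE 0.07). Both had all Cstb-/- arrays below the controls, whereas 1418140_at, at 0.17, 0.42 and -0.60, did not part the genotypes. At P7 all 4 differences lay between -0.12 and -0.06. At P30, 1418139_at had 0.38, 0.51 and 0.14 on the Cstb-/- and -0.29, -0.02 and 0.31 on the control arrays, an overlap that went with a difference of 0.35 (SE 0.15, unadjusted p = 0.0486, adjusted p = 0.644 from limma) and of 0.20 without control array 1.

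Tubb3, the beta-tubulin isotype of neurons, had 1 probe set and did not part the genotypes in any experiment. In the cultures the Cstb-/- arrays had 0.15, -0.28 and 0.23 and the control arrays 0.23, 0, -0.06 and -0.17. The difference was 0.03 (95% interval -0.29 to 0.36), an interval that reaches close to the fold threshold on the upper side. At P7 it was 0.14 (95% interval -0.11 to 0.40) and at P30 -0.06 (-0.32 to 0.20). The P7 value rested on control array 3, without which it was 0.02.

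The stathmin genes Stmn2 and Stmn3 had differences of at most 0.17 in size in all 3 experiments. Stmn2 1423280_at had 0.16, 0.17, 0.15 and 0.20 on the P7 Cstb-/- arrays and 0.10, 0.07, -0.15 and -0.02 on the P7 control arrays (difference 0.17, SE 0.07, unadjusted p = 0.0375, adjusted p = 0.51 from limma). All Cstb-/- arrays were above the controls, by a small amount. At P30 the 2 probe sets of Stmn2 differed by 0.08 and 0.09 (SE 0.07 each), again without overlap of the genotypes, and in the cultures by -0.10 (SE 0.08) and 0.13 (SE 0.07). The 2 probe sets of Stmn3 differed by 0.04 and 0.15 at P7 (0.03 and 0.07 without control array 3), by -0.04 and -0.04 at P30 and by -0.12 and -0.02 in the cultures, and each of these 6 intervals included 0.

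Gap43, a substrate of protein kinase C in the growth cone membrane, had 1 probe set. In the cultures it had 0.59, -0.12 and 0.40 on the Cstb-/- arrays and 0.04, 0.01, 0.03 and -0.07 on the control arrays (difference 0.29, SE 0.15, adjusted p = 0.22 from limma). Cstb-/- arrays 1 and 3 lay above all controls and array 2 below them. Without array 2 the difference was 0.50 (adjusted p = 0.00981 from limma) and passed the threshold. This setting removes the only Cstb-/- array that went the other way, and the pass therefore adds no support for a difference. At P7 and P30 Gap43 differed by 0 (95% interval -0.23 to 0.24) and -0.04 (-0.22 to 0.15).

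Dpysl3 encodes a collapsin response mediator protein, a family that couples guidance cues to the growth cone's cytoskeleton. At P7 its probe set 1438789_s_at had the smallest unadjusted p of the 26, with -0.20, -0.33, -0.23 and -0.45 on the Cstb-/- and -0.04, -0.07, 0.14 and -0.04 on the control arrays (difference -0.30, SE 0.08, unadjusted p = 0.00298, adjusted p = 0.336 from limma). All Cstb-/- arrays were below the controls. With the labelled sex as a covariate it was -0.40 (adjusted p = 0.0268 from limma) and passed the threshold, as then did 2.46% of all probe sets. The other Dpysl3 probe sets differed by 0.17 (SE 0.14; 0.02 without control array 3) and -0.08 (SE 0.06) at P7. At P30 1454613_at had 0.26, 0.06 and 0.43 against -0.09, -0.01 and 0.09, with overlap (difference 0.25, SE 0.10, unadjusted p = 0.0365, adjusted p = 0.617 from limma), which without Cstb-/- array 3 was 0.16. In the cultures the 3 probe sets differed by 0.14, -0.01 and 0.04.

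**Figure D3:**
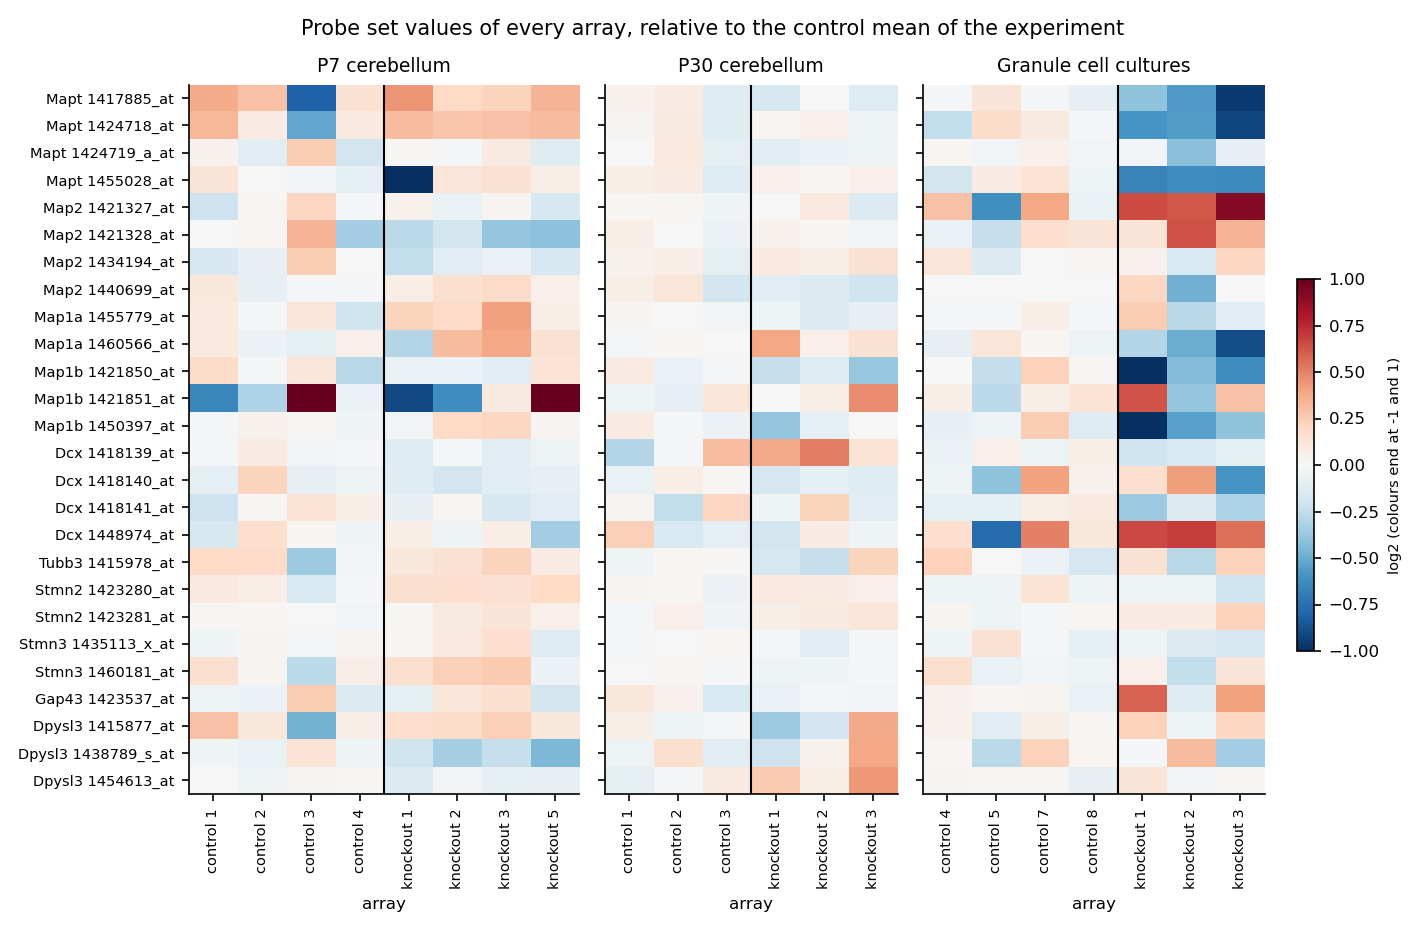
Value of each of the 26 probe sets (rows) on each array (columns) of the 3 experiments, in log2 relative to the control mean (red higher, blue lower, colours end at -1 and 1); a black line parts control from Cstb-/- arrays. Blocks of one colour on the right of the line are seen for Mapt in the cultures, and single arrays stand out at P7, such as control 3 on Mapt 1417885_at (-0.81) and knockout 1 on Mapt 1455028_at (-1.13).

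Whether the probe sets of one gene differed from each other in their genotype difference was tested for the 8 genes with at least 2 of them, by an F test in limma over 9010 such genes that was added after the values had been seen. None of the 8 passed an adjusted p of 0.05 at P7 (0.0555% of all genes did), at P30 (0.111%) or in the cultures (18.9%). An unadjusted p under 0.05 was reached by 2 of the 8 at P7 (7.52% of all genes), by 2 at P30 (6.19%) and by 5 in the cultures (33.6%). In the cultures Map2 (adjusted p = 0.0622), Map1a (0.0698), Map1b (0.0701), Mapt (0.0803) and Dcx (0.0954) came nearest to the threshold. Averaged over its probe sets, Map1b had -0.49 in the cultures (95% interval -0.77 to -0.20, adjusted p = 0.0351 from limma over genes), Map1a -0.31 (-0.55 to -0.06, adjusted p = 0.0862), Map2 0.26 (0.03 to 0.49, adjusted p = 0.107) and Dcx 0.05 (-0.23 to 0.34, adjusted p = 0.786).

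The difference between genotypes was then compared between experiments by contrasts of the within-experiment differences in a single limma fit over all 6 groups; both contrasts share the P7 arrays. Between P30 and P7, 0 of the 26 probe sets differed at an adjusted p under 0.05, where 0.124% of all did, and 3 had an unadjusted p under 0.05 (7.78% of all). Between the cultures and P7, 7 of the 26 differed (2 in the higher and 5 in the lower direction), where 20.3% of all did. All 7 belong to the structural MAP genes. The contrast was -0.94 for Mapt 1417885_at (SE 0.26, adjusted p = 0.0134) and -0.99 for Mapt 1424718_at (SE 0.19, adjusted p = 0.00117). The called probe set 1455028_at had -0.45 (SE 0.27, adjusted p = 0.238). Its P7 difference was 0.11 instead of -0.20 without P7 Cstb-/- array 1, and its contrast without that array is not given here. The contrast was -0.71 for Map1a 1460566_at, -0.68 for Map1b 1421850_at and -1.02 for Map1b 1450397_at (adjusted p between 0.0115 and 0.0152). For Map2 1421327_at and 1421328_at it was 0.77 and 0.69 (adjusted p = 0.0172 and 0.0109). The 13 probe sets of Dcx, Tubb3, Stmn2, Stmn3, Gap43 and Dpysl3 did not pass. Nearest among them were Stmn2 1423280_at (adjusted p = 0.0557 from limma) and Dcx 1448974_at (0.061). A split between these genes and the structural MAP genes was not tested. Without culture Cstb-/- array 3, 4 of the 26 differed, and Mapt 1417885_at (adjusted p = 0.0543), Map2 1421327_at (0.0605) and Map1a 1460566_at (0.0502) no longer did. Without culture control arrays 7 and 8, 6 differed, and Map1b 1421850_at (adjusted p = 0.0702) and 1450397_at (0.0552) were not among them. Without P7 control array 3 all 7 still differed, with -0.67 for Mapt 1417885_at and -0.82 for Mapt 1424718_at. The share of all probe sets that differed is not set beside these counts with arrays left out. The value of Map1b 1450397_at was -0.57 without culture Cstb-/- array 1 and -0.50 without culture Cstb-/- arrays 1 and 2. Tissue, age, culture and the array experiment cannot be told apart in this contrast.

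**Figure D4:**
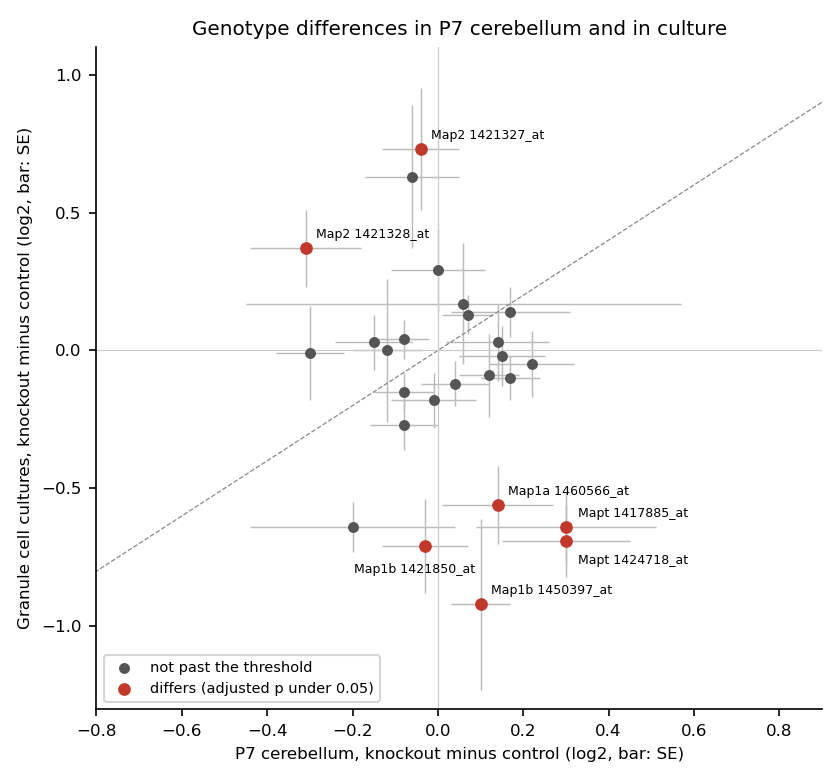
Knockout minus control difference (log2) of each of the 26 probe sets in the P7 cerebella (x axis) and in the granule cell cultures (y axis), with bars of 1 SE; the dashed line marks equal differences. The 7 probe sets in red, all of Mapt, Map2, Map1a or Map1b, differ between the experiments at an adjusted p under 0.05, and 5 of them lie at the bottom, from -0.92 to -0.56 in the cultures.

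Other genes of the microtubule system were described from lists, by counts alone. A probe set that rose or fell is, here and below, one called with a higher or lower value in Cstb-/-. In the cerebella none of the probe sets in the 7 lists was called at either age. In the cultures, 2 of 28 probe sets of other tubulin genes rose and 0 fell, and the list's median was -0.01. The 2 were 1 probe set of Tubb6 at 1.16 (SE 0.07, adjusted p = 0.000121 from limma) and 1 of Tubb4b at 0.77 (SE 0.12, adjusted p = 0.00756). Both genes encode beta-tubulins that are not particular to neurons, and their other probe sets were not called. Of 52 probe sets of other microtubule-associated proteins 1 fell and 0 rose. The one that fell was 1 of the probe sets of Map6, a stabiliser of cold-resistant microtubules (-0.48, SE 0.08, adjusted p = 0.00835 from limma). Of 58 probe sets of kinases that act on tau and MAPs 1 fell, that of the neuronal Cdk5 activator Cdk5r2 (-0.78, SE 0.11, adjusted p = 0.00657). Of 78 probe sets of microtubule end binders 1 rose, that of Nde1 (1.16, SE 0.14, adjusted p = 0.00258), which acts with dynein in dividing and migrating cells. Of 88 probe sets of other growth cone genes 2 rose, the actin bundler Fscn1 (1.14, SE 0.16, adjusted p = 0.00542) and the actin regulator Enah (0.71, SE 0.12, adjusted p = 0.00986). None of 58 probe sets of tubulin severing and modifying enzymes (21 had an unadjusted p under 0.05) and none of 11 of other stathmins and collapsin response mediator proteins (4 unadjusted) was called. These counts stand beside the 2.54% of all probe sets that were called in the cultures.

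Markers of other cells moved with genotype beside these genes. In bulk RNA, fewer cells of a type and less RNA per cell cannot be told apart. In the cultures 31 of 41 probe sets of proliferating cells rose, and the mean over the list was between 1.22 and 1.33 on the Cstb-/- arrays and between -0.09 and 0.06 on the controls. Of 34 probe sets of meningeal fibroblasts and mural cells 16 rose (list mean 0.99 to 1.04 against -0.03 to 0.05), with Col1a2, a fibrillar collagen gene, at 3.41 (SE 0.10, adjusted p = 1.91e-05 from limma). Of 42 of astrocytes and Bergmann glia 8 rose (0.39 to 0.57 against -0.09 to 0.20), and of 35 of granule cell precursors 8 rose (0.20 to 0.30 against -0.01 to 0.01). Of 31 of mature granule neurons 0 rose and 1 fell, a probe set of Fat2 (-0.62, SE 0.08, adjusted p = 0.00382 from limma). By sign alone 17 of the 31 were higher and 14 lower, with list means of -0.11 to 0.08 against -0.05 to 0.03. Of 33 of oligodendrocytes 26 had a lower value, but 1 rose and 0 fell (median -0.19, list mean -0.37 to 0.10 against -0.04 to 0.04). Of 29 of Purkinje cells 0 rose and 1 fell (list mean -0.01 to 0.05 against -0.03 to 0.05). None of 25 of microglia and none of 20 of choroid plexus and ependyma was called. The mean over the 26 microtubule and growth cone probe sets was -0.13 to -0.06 against -0.10 to 0.11. The part of these cells in the lower Mapt, Map1a and Map1b values was not tested.

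At P7 the 20 probe sets of choroid plexus and ependyma had a median difference of -1.40 (list mean -2.36 to -0.35 on the Cstb-/- and -0.19 to 0.13 on the control arrays), the 33 of oligodendrocytes one of 0.35 (0.32 to 0.69 against -0.20 to 0.15) and the 31 of mature granule neurons one of 0.18 (0.18 to 0.30 against -0.11 to 0.06). Of the 41 probe sets of proliferating cells 36 had a lower value in Cstb-/- (median -0.13, list mean -0.21 to -0.06 against -0.05 to 0.04), and no probe set of these 4 lists was called. At P30, 13 of 25 probe sets of microglia rose (0.80 to 1.03 against -0.11 to 0.09) and 3 of 42 of astrocytes and Bergmann glia, all 3 of Gfap. Of the 20 of choroid plexus and ependyma 19 had a lower value and none was called (median -0.82), with list means of -2.40 and -2.31 on Cstb-/- arrays 1 and 3, 0.63 on Cstb-/- array 2 and -0.58 to 0.61 on the control arrays. The list means of the microtubule and growth cone genes lay between -0.04 and 0.04 on the Cstb-/- and between -0.03 and 0.01 on the control arrays. The part of these markers in the P7 and P30 values was not tested.

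**Figure D5:**
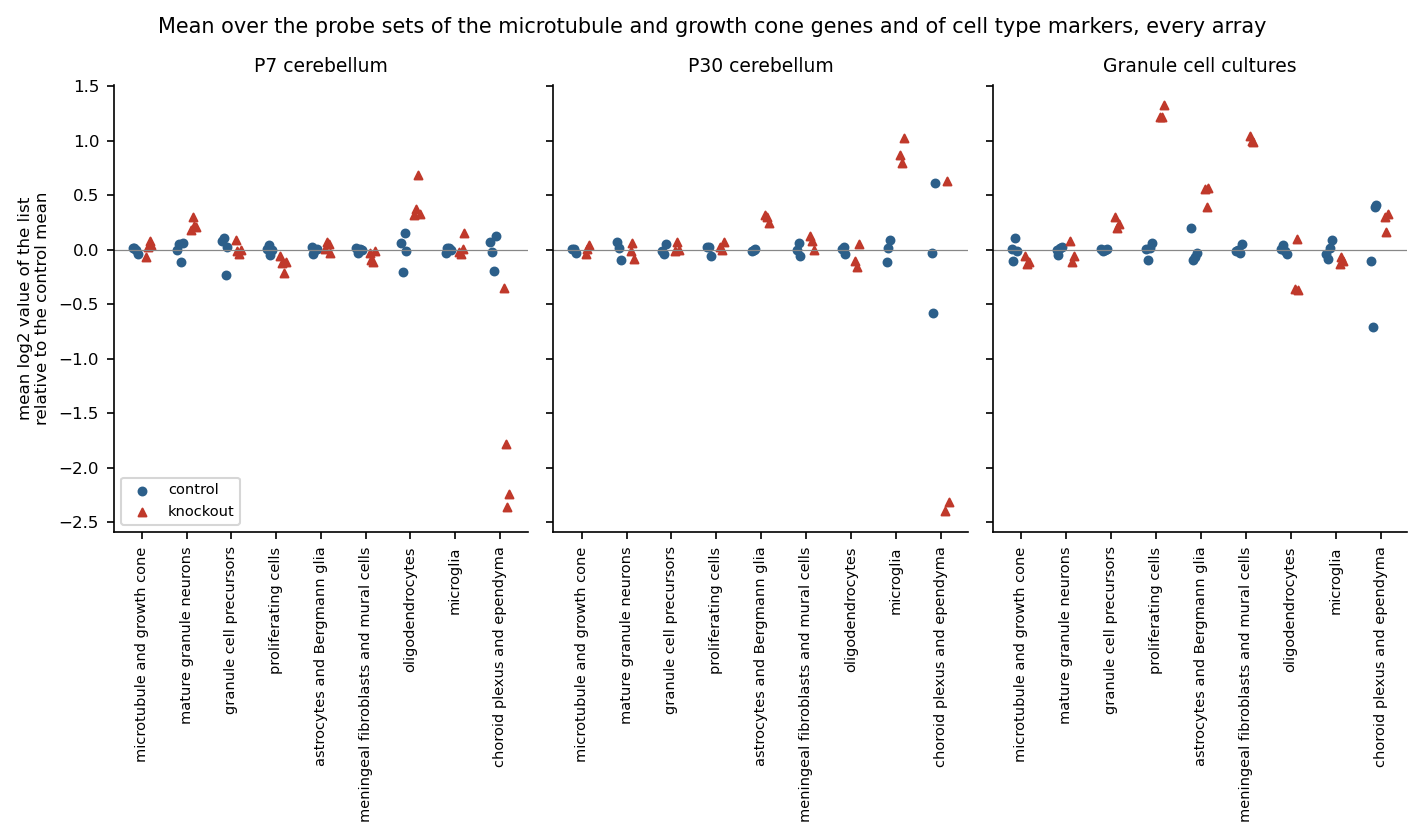
Mean log2 value relative to the control mean (y axis) over the probe sets of the 10 microtubule and growth cone genes and of 8 cell type marker lists (x axis), on every array of the 3 experiments; blue circles are control and red triangles Cstb-/- arrays. In the cultures the triangles of proliferating cells (1.22 to 1.33) and of meningeal fibroblasts and mural cells (0.99 to 1.04) lie far above all circles, while those of the microtubule and growth cone genes (-0.13 to -0.06) overlap the circles.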

How the data were processed

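Total RNA was measured on Affymetrix expression arrays. The authors made the deposited log2 values with RMA (background adjustment, quantile normalization, summarization; version not given in the sources used here) in GeneSpring GX and subtracted each probe set's median over the samples, which in the values was 0 within each experiment. The table had 45101 probe sets, of which 64 controls were dropped and 45037 tested (34945 with 1 gene symbol in the platform annotation, 932 with several, 9160 with none). Knockout minus control was fitted within each experiment with limma 3.58.1 in R 4.3.3 (lmFit, eBayes, 2-sided, Benjamini-Hochberg over all probe sets), without a filter on low signals, since no levels are kept. Arrays were grouped by the labels. All 10 genes were named with every probe set, and of each other list at most 3 genes with the smallest p. Members and lists were chosen with earlier results of these data known. The tests were tried on simulated data. Precision is limited by the number of arrays, and where nothing says that samples were separate litters or cultures, p-values measure the spread between these samples. The authors checked by principal components whether samples of a genotype lay together. They left an array of each P7 genotype and of the Cstb-/- cultures out of their analysis. For the cultures this does not account for all arrays they report as hybridized, since the values held 3 Cstb-/- and 4 control arrays. Why the further arrays are absent is not stated in the sources used here. If the choice of arrays used the grouping, the spread within a genotype may be understated here and the p-values too small.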

Additional observations from a re-analysis of the deposited data

Results flagged for a closer look

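In 7 of 78 groups of 4 arrays (8.97%; chance gives about 1 in 20), 1 array lay far from the others, given here as its gap to the nearest array as a share of the group's range. At P7 these were Cstb-/- array 1 on Mapt 1455028_at (0.934), control array 2 on Dcx 1418139_at (0.963) and Dcx 1418140_at (0.869), and control array 3 on Dpysl3 1438789_s_at (0.854). In the cultures they were control array 7 on Map1a 1455779_at (1, with the other 3 controls tied) and on Stmn2 1423280_at (0.93), and control array 8 on Dpysl3 1454613_at (0.896). Groups of 3 arrays were not examined in this way. The flagged culture probe sets and, at P7, Dcx 1418140_at had identical values on some arrays of the experiment. The rate of 1 in 20 does not allow for such ties.

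The genotype difference was not the same in the cultures and in the P7 cerebella for 7 probe sets, by limma's contrast at an adjusted p under 0.05. The contrast was -0.94 for Mapt 1417885_at, -0.99 for Mapt 1424718_at, 0.77 for Map2 1421327_at, 0.69 for Map2 1421328_at, -0.71 for Map1a 1460566_at, -0.68 for Map1b 1421850_at and -1.02 for Map1b 1450397_at. Culture, age and array experiment cannot be told apart in it.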

How the results depend on the processing

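For the P7 cerebella, the count of called probe sets among the 26 stayed at 0 with limma under all alternatives but the labelled sex as a covariate, which called 1, Dpysl3 1438789_s_at. For P30 it stayed at 0 under every alternative run. The methods' t-test with correction over all probe sets also gave 0 in both cerebella. In the granule cell cultures the main count of 1 became 5 with the p adjustment run on only those probe sets that passed the fold (a filter that uses the difference under test), 4 with array weights and 5 in 1 fit over all groups. It became 0 with the methods' t-test, with arrays quantile-normalized again, without control arrays 7 and 8, and without Cstb-/- arrays 1 and 2, the last chosen after seeing the data. It stayed at 1 with no fold threshold, robust eBayes, array medians at 0, the labelled sex as a covariate, no _x_at probe sets and each gene's mean over its probe sets. Leaving out 1 array at a time gave 0 to 2 in the cultures: 0 without Cstb-/- array 1 or 3 or control array 5, 7 or 8, and 2 without Cstb-/- array 2 (one higher, Gap43, and one lower, Mapt 1455028_at). At P7 and P30 leaving out 1 array gave 0 each time. The difference of Mapt 1455028_at itself lay between -0.70 and -0.60 with 1 array left out, with an adjusted p of 0.0047 to 0.0279. In the contrast of the cultures with P7, 7 probe sets became 9 with sex as a covariate and stayed 7 with array medians at 0. Leaving out 1 array at a time, chosen after seeing the data, gave 4 (without culture Cstb-/- array 3) to 9, and the contrast of P30 with P7 stayed at 0. It was 6 without culture control arrays 7 and 8 and 8 without culture Cstb-/- arrays 1 and 2. No called value changed sign. The share of all probe sets that passed under each alternative is not set beside these counts. A higher or lower count can therefore not be read as a result particular to these genes. The cause of these changes was not tested.

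The replicate numbers of the labels showed no steady pairing of the arrays. Same-numbered Cstb-/- and control arrays deviated together with correlations of 0.01, 0.05 and 0.17 at P7 and of -0.04, -0.18 and -0.03 at P30. Only for number 3 at P7 was this above the highest correlation with a control array of another number (0.17 against -0.08). With so few arrays, these correlations cannot show whether arrays came from the same litter. With the replicate number as a block (replicate block), 0 of the 26 probe sets were called at P7 and 0 at P30. No paired analysis was possible in the cultures because the genotypes shared no numbers. A planned filter on low signals was not run, and these values do not show signal over background.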
